A study of Mus musculus with 29 samples.

Results

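The genes described are 10 iron handling genes of the mouse, taken by name from the 38124 genes of the deposited tables: Trf, Tfrc, Tfr2, Hfe, Scara5, Fth1, Ftl1, Slc40a1, Hamp and Hamp2. RNA sequencing libraries came from liver and from the whole hindlimb musculature of 16 male C57BL/6 mice, an inbred strain, bought at 14 weeks of age and put on 4 diets at 4 months of age. Control mice were fed 13.6 kcal per day, 95% of what they ate freely, and the groups labelled soy, fish and lard were fed 8.6 kcal per day, 60% of it. The controls were therefore mildly limited in food themselves, and the labels do not give the fat of their diet. The livers came from 3 control, 4 soy, 4 fish and 4 lard mice, and the muscles from 4 control mice, 3 on soy, 3 on fish and 4 on lard. The series title asks whether omega-3 fatty acids partly return the expression profile of calorie restriction toward that of controls.

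Iron circulates in blood bound to transferrin and enters most cells when transferrin binds its receptor on the cell surface. Iron that is not used is held inside ferritin shells, and the exporter ferroportin returns it to the blood. The liver sets the balance of the body by secreting hepcidin, a small hormone that blocks ferroportin, and cells tune several of these messages through iron-responsive elements, short hairpins in the untranslated regions that bind iron regulatory proteins.

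The hairpins are shown because they divide these genes by the way their messages can respond to iron. The search looked in the untranslated regions of GENCODE M21 coding transcripts (GRCm38), on the transcribed strand, for an unpaired C, a stem of 5 base pairs and a loop of 6 bases, CAGTGN. It matched 4 of the 10 genes. Tfrc, which encodes the transferrin receptor, had 4 matches in its 3′ untranslated region, and Fth1, Ftl1 and Slc40a1, which encode the heavy and light ferritin chains and ferroportin, had 1 match each in the 5′ untranslated region. Capitals mark the loop.
Tfrc element A: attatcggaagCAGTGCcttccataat
Tfrc element B: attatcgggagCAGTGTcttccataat
Tfrc element C: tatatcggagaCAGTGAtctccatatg
Tfrc element D: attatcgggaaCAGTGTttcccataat
Fth1 element: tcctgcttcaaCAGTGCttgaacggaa
Ftl1 element: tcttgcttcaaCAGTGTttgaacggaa
Slc40a1 element: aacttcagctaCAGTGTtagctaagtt
The Tfrc elements lie on the plus strand at chr16:32631220-32631246, chr16:32631599-32631625, chr16:32631664-32631690 and chr16:32631711-32631737. The Fth1 element lies on the plus strand at chr19:9982733-9982759. The Ftl1 element is on the minus strand at chr7:45459780-45459806, and the Slc40a1 element on the minus strand at chr1:45925466-45925492. Of 21901 coding genes, 0.142% had such a match in a 5′ untranslated region and 0.589% in a 3′ untranslated region. A match is a description of the letters and was not tested for binding.

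The hepcidin genes Hamp and Hamp2 are close copies that lie near each other on chromosome 7, and their promoters are shown because their messages differed in level and in spread. Each stretch holds 80 bases on the minus strand (RefSeq, GRCm38.p6). Counted from the transcription start site, it runs from -129 to -50 in Hamp and from -126 to -47 in Hamp2. That of Hamp is at chr7:30944079-30944158 and that of Hamp2 at chr7:30924228-30924307. Capitals mark GGCGCC, the core of the element through which bone morphogenetic protein (BMP) signals act on hepcidin, and TTCTTGGAA, a match to the STAT motif TTCNNNGAA through which inflammatory signals act.
Hamp promoter: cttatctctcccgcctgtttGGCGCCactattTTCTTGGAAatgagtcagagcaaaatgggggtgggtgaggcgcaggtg
Hamp2 promoter: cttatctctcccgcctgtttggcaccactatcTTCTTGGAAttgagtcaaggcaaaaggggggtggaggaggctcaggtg
The stretches were identical at 71 of 80 bases. Both held the STAT motif. The BMP core was present in Hamp, and Hamp2 differed from it by G4A, counted from 1 at the 5′ end of the core. GGCGCC and the pattern TTCNNNGAA read the same on either strand, and the marked matches did not overlap. These matches describe the letters, and their part in the levels of Hamp and Hamp2 was not tested. In the 250 bases upstream of the start site, GGCGCC was found in 9.59% and TTCNNNGAA in 7.02% of 32851 promoters. Promoters were matched for Hamp, Hamp2, Tfrc, Tfr2, Fth1, Ftl1 and Hfe, and among these GGCGCC was also in the Tfrc promoter, from -89.

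Libraries held 11315231 to 27106865 exon reads. All 6 hepatocyte markers were detected in every liver, at a sum of 87890 to 151000 CPM (exon reads per 1000000 exon reads of the library), against 167 to 550 CPM in muscle. The sum of 6 muscle fibre markers was 96320 to 188000 CPM in muscle. In liver it was 118 to 256 CPM apart from the fish liver of mouse 1123, with 2445 CPM. Soy livers 1073 and 1159 had 5.47% and 5.41% of their gene reads outside exons, against 7.91% to 8.92% in the other livers. Control muscles 1071 and 1120 carried 276 and 1169 CPM of 8 neutrophil markers and 1991 and 7685 CPM of erythroid markers, while neutrophil markers did not exceed 2.62 CPM in the other muscles. Erythroid markers separated less sharply and reached 1082 CPM in a soy muscle and 834 CPM in a lard muscle. The main values that rest on these libraries are given with and without them.

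The strongest contrast in the level of the iron genes was between the tissues. Transferrin, hepcidin, transferrin receptor 2 and the light ferritin chain were mainly liver messages, the transferrin receptor Tfrc and the ferritin receptor Scara5 were higher in muscle, and the heavy ferritin chain Fth1 was abundant in both. Averaged over the 4 diets, 7 of 10 genes were higher in liver and 2 were lower by edgeR's quasi-likelihood test at an adjusted p under 0.05, in which 86.6% of all genes tested were called. With so large a share, a call between tissues says little about iron genes, and the sizes carry the information. The sizes have a limit where the muscle level is very low. Muscles also held liver messages, with Alb at a median of 222 CPM there against 98660 CPM in liver. The part of liver RNA in the muscle levels of Tfr2, Hamp and Hamp2 was not tested.

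Trf encodes transferrin, the iron carrier of plasma, which hepatocytes secrete. Its RPKM (exon reads scaled to kilobases of exon length and to 1000000 reads) was 2975 to 5348 in liver with a median of 3843, and 19.3 to 84.2 in muscle with a median of 32.2. It had the highest median of the 10 genes in liver, and its log2 level was higher there by 6.79 ± 0.25 (SE, adjusted p = 3.174e-19). Only 8.76% of its liver exon reads were unique, and 63.5% of its annotated exon bases are shared with Gm20425 on the same strand, which itself had 1114 liver reads in all. On unique reads the difference was 6.74. In muscle its level over 14 libraries was most like those of Trarg1 (r = 0.960), Lipe (r = 0.958) and Pck1 (r = 0.957). Lipe and Pck1 are expressed in fat, and the sum of 5 adipocyte markers in muscle ranged from 53.1 to 913 CPM, highest in soy muscle 1073, which also held the highest Trf level at 259 CPM. The part of fat cells in the Trf level was not tested, and in bulk RNA fewer cells of a type and less RNA per cell cannot be told apart.

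Tfrc, the receptor that takes up transferrin into most cells, ran the other way. Its RPKM was 2.63 to 7.93 in liver and 8.90 to 45.7 in muscle, without overlap, and its log2 level was lower in liver by 2.15 ± 0.16 (log2 difference -2.15, adjusted p = 2.46e-12). Its relative Tfr2 acts in hepatocytes as a sensor of loaded transferrin and had a median of 114 RPKM in liver and 0.27 RPKM in muscle, a log2 difference of 8.66 ± 0.16 (adjusted p = 2.231e-25). Hfe, an MHC class I-like protein that works with these receptors in setting hepcidin, was closer to even. It ranged from 8.35 to 11.7 RPKM in liver and from 4.70 to 14.4 RPKM in muscle, with overlapping ranges and a log2 difference of 0.60 ± 0.10 (adjusted p = 3.192e-06).

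Scara5, a scavenger receptor that can take up ferritin, was nearly absent from liver. It had 112 liver reads over 15 libraries, at a median of 0.044 RPKM, against 2.24 to 7.55 RPKM in muscle. No muscle overlapped a liver, and the log2 level was lower in liver by 5.98 ± 0.20 (log2 difference -5.98, adjusted p = 3.437e-20).

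The ferritin chains differed in their tissue balance. Fth1, the heavy chain that oxidises iron for storage, had a median of 911 RPKM in liver (775 to 1858) and 1174 RPKM in muscle (1066 to 2237). Its log2 difference was -0.19 ± 0.12 (adjusted p = 0.143) and did not pass the threshold. Without the 4 libraries that stand apart the value was -0.18 and passed (adjusted p = 0.0204), as it did without soy liver 1073 alone (-0.24, adjusted p = 0.049). Ftl1, the light chain that helps the iron core form, had a median of 2182 RPKM in liver and 146 RPKM in muscle, and its log2 level was higher in liver by 3.86 ± 0.14 (adjusted p = 1.463e-19). The Ftl1 to Fth1 ratio of RPKM was 1.85 to 3.03 in liver and 0.10 to 0.20 in muscle. Only 34.7% of Ftl1 liver reads were unique. On unique reads per kilobase the ratio was 0.65 to 1.07 in liver and 0.039 to 0.074 in muscle, so which chain led in liver depended on the reads counted, while the gap between tissues did not.

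Slc40a1, ferroportin, the exporter that hepcidin removes from the cell surface, had a median of 51.3 RPKM in liver and 8.30 RPKM in muscle. Its ranges did not overlap, and the log2 difference was 2.82 ± 0.12 (adjusted p = 9.462e-18). Hamp had a median of 1738 RPKM in liver (912 to 3986) and 4.40 RPKM in muscle, a log2 difference of 8.60 ± 0.29 (adjusted p = 3.708e-20). Hamp2 had a median of 105 RPKM in liver (39.6 to 320) and 0.42 RPKM in muscle, a log2 difference of 7.77 ± 0.34 (adjusted p = 1.318e-17). Its muscle libraries held 1 to 23 reads each. The Hamp to Hamp2 ratio in liver ranged from 6.90 to 31.9 with a median of 13.9.

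**Figure D1:**
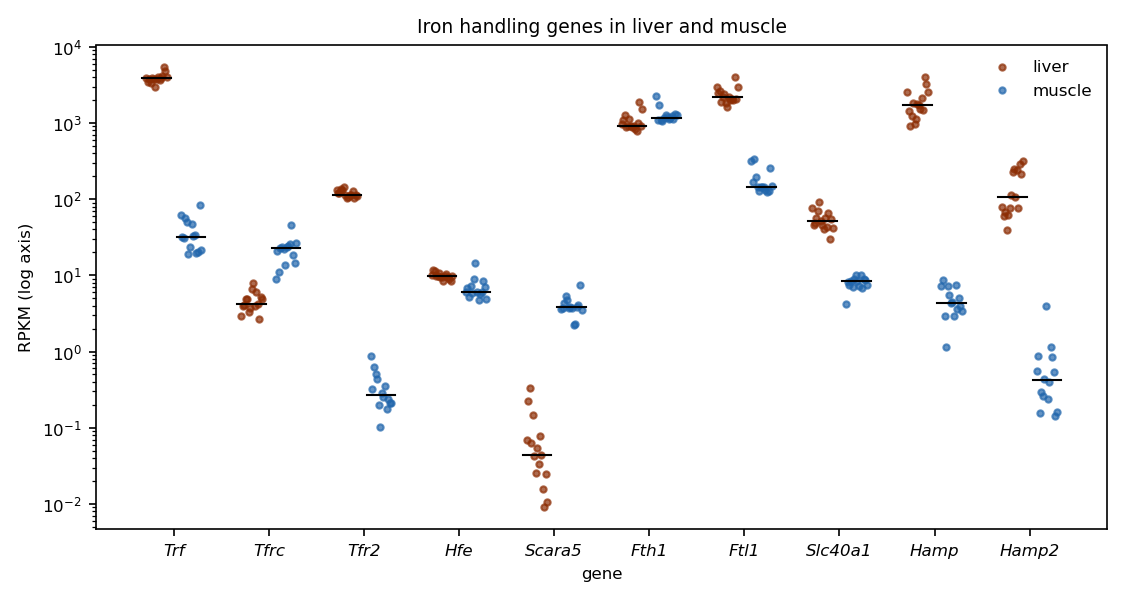
RPKM on a log axis of the 10 genes in 15 livers and 14 muscles, each point 1 library and each bar the median. Trf, Tfr2, Ftl1, Slc40a1, Hamp and Hamp2 sit higher in liver without overlap, Tfrc and Scara5 sit higher in muscle without overlap, and the points of Fth1 and Hfe overlap.

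In liver the order of the medians was Trf, Ftl1, Hamp, Fth1, Tfr2, Hamp2, Slc40a1, Hfe, Tfrc and Scara5. The ranges of neighbours overlapped from Trf to Fth1 and from Tfr2 to Slc40a1. Within libraries, Ftl1 exceeded Hamp in 12 of 15 livers, and Tfr2 exceeded Hamp2 in 9 of 15. In muscle the order was Fth1, Ftl1, Trf, Tfrc, Slc40a1, Hfe, Hamp, Scara5, Hamp2 and Tfr2. There Fth1 exceeded Ftl1, and Ftl1 exceeded Trf, in 14 of 14 muscles without overlap of their ranges, and all later neighbours overlapped.

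In liver, none of the abundant iron genes passed the test of calorie restriction against control. Against controls, 1 of the 10 genes was called in the 3 restricted diets together, Scara5, which was lower, where 1.08% of 12788 genes were called. The median log2 difference of the 10 genes was -0.01, against 0.01 over all genes. By unadjusted p, 2 of the 10 were under 0.05, and DESeq2 called 2 and limma-voom 1. The sum of hepatocyte markers was 87890 to 106500 CPM in control and 101200 to 151000 CPM in restricted livers, and its part in the values below was not tested. The comparisons with control share the same 3 control livers. Diet groups that did not overlap in CPM, here and in muscle, are a description only. The share of all genes that separate in this way was not counted. Hfe in soy livers, and Tfr2 and Fth1 in lard livers, also lay below all controls.

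Hamp, the hepcidin hormone, was measured at 1083, 619 and 391 CPM in control livers and at 630, 1653, 1387 and 1064 CPM in soy livers. Fish livers had 527, 779, 417 and 485 CPM, and lard livers had 764, 747, 656 and 910 CPM. Soy held the 2 highest livers, but its lowest lay below the highest control. The log2 difference of restricted livers from control was 0.28 ± 0.28 (adjusted p = 0.754), and that of soy livers was 0.94 ± 0.33 (adjusted p = 0.136). Without soy livers 1073 and 1159 the soy difference was 0.61 (adjusted p = 0.486). Without soy liver 1065 it was 1.17 and passed (adjusted p = 0.0248), a removal that raised the number of all genes called from 149 to 1625.

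Hamp2 was at 37.8, 28.8 and 32.1 CPM in control livers and at 18.9, 29.6, 36.4 and 53.8 CPM in fish livers. Lard livers had 109, 121, 50.2 and 116 CPM, and soy livers had 36.9, 132, 101 and 148 CPM. The 4 lard livers lay above all 3 controls, 3 of 4 soy livers did so, and fish livers spread around the controls. The log2 difference was 1.20 ± 0.40 for restricted diets (adjusted p = 0.215), 1.85 ± 0.46 for soy (adjusted p = 0.0573) and 1.69 ± 0.46 for lard (adjusted p = 0.126). With DESeq2's Wald test these values passed, at an adjusted p of 0.0402, 0.00163 and 0.00927, so the call turned on the method. The lard value also passed in a fit of the compared diets alone (adjusted p = 0.0223), and the soy value passed without soy liver 1065 (2.15, adjusted p = 0.00871) or soy liver 1141 (1.91, adjusted p = 0.0334). Without soy livers 1073 and 1159 the soy value fell to 1.13 (adjusted p = 0.304).

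Over the 15 livers, log2 CPM of Hamp and Hamp2 correlated at Pearson's r = 0.718 (permutation p = 0.00304, adjusted 0.00405) and Spearman's rho = 0.707 (permutation p = 0.00427, adjusted 0.0171). Without the 2 livers farthest in Hamp r was 0.643, and without soy livers 1073 and 1159 it was 0.589. This was 1 of 4 relations tested by permutation, with 100000 resamples each. They were chosen after the values were seen, and r was computed for all pairs of tested members in each tissue. The adjusted p covers the 4 relations only, so it does not allow for that choice. Hamp and Trf gave r = 0.791 (permutation p = 0.00046, adjusted 0.00092) and rho = 0.629 (permutation p = 0.0138, adjusted 0.0211), with r = 0.559 without the 2 farthest livers. Both pool the diets.

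Transferrin was at 11970, 10680 and 11970 CPM in control livers and at 12970, 16200, 15110 and 12100 CPM in soy livers. Fish livers had 9353 to 12070 CPM and lard livers 11300 to 12510 CPM. The 4 soy livers lay above the 3 controls, with a log2 difference of 0.44 ± 0.13 that did not pass (adjusted p = 0.093). Without soy livers 1073 and 1159 it was 0.34 (adjusted p = 0.227). Without soy liver 1065 it passed at 0.50 (adjusted p = 0.0285), and the DESeq2 Wald test gave 0.45 (adjusted p = 0.00647).

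For Tfrc, Tfr2, Hfe and Slc40a1, no difference between restricted or lard livers and controls passed. Tfrc was at 16.9, 22.6 and 23.7 CPM in control livers and at 37.9, 46.1, 22.6 and 35.1 CPM in lard livers. Lard livers reached above the controls in 3 of 4 cases, and the log2 difference was 0.83 ± 0.25 (adjusted p = 0.187). Tfr2 ranged from 317 to 461 CPM over all livers, and its difference between restricted and control livers was -0.0049 ± 0.0833 (95% interval -0.17 to 0.16, adjusted p = 0.992). Hfe ranged from 32.7 to 45.3 CPM, with a difference of -0.15 ± 0.10 (adjusted p = 0.612). Slc40a1 was at 278, 169 and 177 CPM in controls and 107 to 333 CPM in restricted livers, a difference of -0.02 ± 0.20 (adjusted p = 0.983). Its highest value, 333 CPM, was in fish liver 1124, which also had the highest sum of Kupffer cell and macrophage markers at 906 CPM. That is 1 library, and the part of these cells in the Slc40a1 level was not tested.

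Scara5 was the called gene. Control livers had 0.425, 1.37 and 2.05 CPM, soy livers 0.095, 0.054, 0.149 and 0.062 CPM, fish livers 0.382, 0.899, 0.261 and 0.156 CPM, and lard livers 0.329, 0.207, 0.481 and 0.265 CPM. All soy livers lay below all controls, and fish and lard livers overlapped the lowest control. These levels rest on 6 to 32 reads in a control library and 1 to 15 in a restricted one. The log2 difference of restricted livers was -2.41 ± 0.44 (adjusted p = 0.0125), and that of soy livers was -3.65 ± 0.66 (adjusted p = 0.0152), where 1.17% of all genes were called. By summed reads, controls exceeded soy livers 15.1-fold (58 against 6 reads, exact 95% interval 6.52 to 42.7) and all restricted livers 4.79-fold (58 against 54 reads, 3.25 to 7.07), intervals that cover counting error only.

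The Scara5 call in liver had a narrow base. The gene entered the test only because 3 livers exceeded 0.641 CPM, control livers 1120 and 1121 and fish liver 1123, the liver with the muscle fibre signal and with 7.79 CPM of adipocyte markers against at most 0.892 CPM in the others. With a mean of at least 5 CPM required, or without fish liver 1123, the gene was not tested. The restricted difference was -2.33 without control liver 1120 (adjusted p = 0.0912) and -1.89 without control liver 1121 (adjusted p = 0.204). The soy difference was -3.58 without control liver 1120 (adjusted p = 0.0616), -3.14 without control liver 1121 (adjusted p = 0.0906), -3.58 without soy liver 1159 (adjusted p = 0.0502) and -3.33 without soy livers 1073 and 1159 (adjusted p = 0.114).

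Ferritin in liver followed particular libraries. Fth1 was at 912, 1022 and 1207 CPM in controls, 842 to 1070 CPM in fish livers and 729 to 863 CPM in lard livers. Soy livers had 949, 1702, 857 and 1391 CPM, and the 2 high values belong to mice 1073 and 1159. Ftl1 showed the same split, with 2186, 4245, 2208 and 3057 CPM in soy livers, 3153, 2655 and 2801 CPM in controls, 2002 to 2564 CPM in fish livers and 1764 to 2368 CPM in lard livers. Fish and lard livers lay below every control for Ftl1, at differences of -0.40 ± 0.22 (adjusted p = 0.668) and -0.33 ± 0.22 (adjusted p = 0.721) that did not pass. Over the 15 livers the chains correlated at r = 0.877 (permutation p = 0.00027, adjusted 0.00092) and rho = 0.621 (permutation p = 0.0158, adjusted 0.0211). Without livers 1073 and 1159, the farthest 2, r was 0.508, so much of the relation rested on them.

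**Figure D2:**
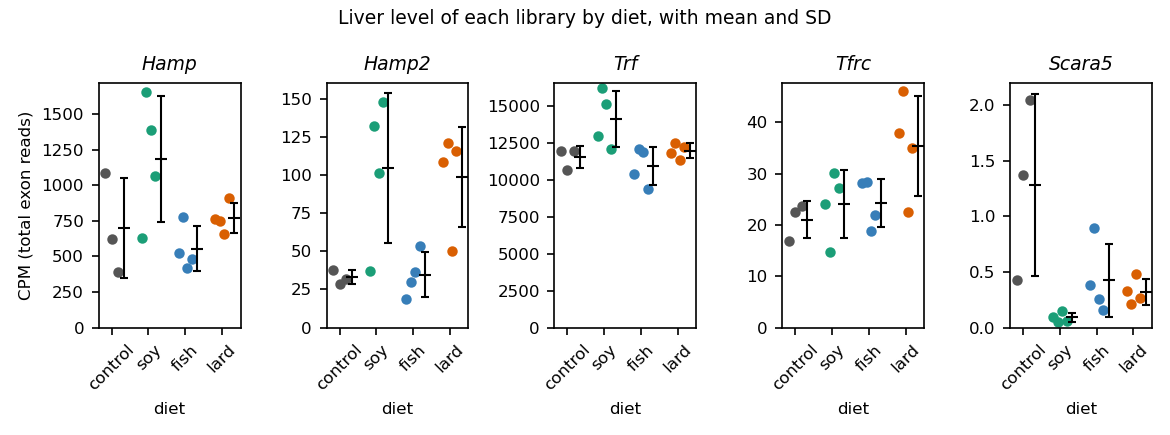
CPM of total exon reads of Hamp, Hamp2, Trf, Tfrc and Scara5 in each liver by diet, each point 1 library, with the mean and SD beside the points. Hamp2 is above 50 CPM in 4 lard and 3 soy livers, 1 fish liver lies just above that level, and Scara5 is below 0.15 CPM in every soy liver.

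Fish and lard livers taken alone gave 0 called members. In fish against control 0.383% of genes were called, 1 member had an unadjusted p under 0.05, and DESeq2 called 0 members and limma-voom 0. In lard against control 0.508% of genes were called, 3 members had an unadjusted p under 0.05, and DESeq2 called 1 member and limma-voom 0.

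Among the restricted diets, transferrin, hepcidin and ferritin had lower values in fish than in soy livers, short of the threshold. In fish against soy livers 0.0938% of genes were called and 0 of the 10 members, by edgeR, while 6 members had an unadjusted p under 0.05, as 2959 of 12788 genes did. DESeq2 called 5 members and 813 genes in all, and limma-voom called 0 members and 12 genes. All 4 fish livers lay below all 4 soy livers for Trf, with a log2 difference of -0.56 ± 0.12 (adjusted p = 0.0853). Hamp was lower in fish by a log2 difference of -1.31 ± 0.31 (adjusted p = 0.106) and Hamp2 by -1.79 ± 0.41 (adjusted p = 0.104). Fth1 and Ftl1 differed by -0.65 ± 0.21 (adjusted p = 0.123) and -0.60 ± 0.21 (adjusted p = 0.125).

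These 5 differences depended on the soy libraries in opposite ways. Without soy liver 1065, the soy liver of lowest Hamp and Hamp2, all 5 passed, with Hamp at -1.53 (adjusted p = 0.0108) and Hamp2 at -2.09 (adjusted p = 0.00981). They also passed without soy liver 1141, with Hamp at -1.27 (adjusted p = 0.0347). These removals raised the number of all genes called from 12 to 2092 and to 1329, so the members moved with a change across all genes. Without soy livers 1073 and 1159, Hamp was at -0.97 (adjusted p = 0.477), Hamp2 at -1.07 (adjusted p = 0.512), Trf at -0.47 (adjusted p = 0.280), Fth1 at -0.10 (adjusted p = 0.850) and Ftl1 at -0.08 (adjusted p = 0.852). The ferritin differences were thus small between fish livers and the other 2 soy livers, and the part of the low share of reads outside exons was not tested.

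Lard livers differed from soy livers in 0 members where 0% of genes were called, with 6 members at an unadjusted p under 0.05, 1 called by DESeq2 and 0 by limma-voom. The DESeq2 call was Fth1, at -0.69 ± 0.21 in edgeR (adjusted p = 0.229). In edgeR it passed without soy liver 1065 (-0.82, adjusted p = 0.0434) or soy liver 1141 (-0.85, adjusted p = 0.0472), and it was -0.14 without soy livers 1073 and 1159 (adjusted p = 0.897). Fish against lard livers gave 0 called members where 0.203% of genes were called, with 3 members at an unadjusted p under 0.05, 1 called by DESeq2 and 0 by limma-voom. Hamp2 was lower in fish than in lard by a log2 difference of -1.63 ± 0.41 (adjusted p = 0.145), with the highest fish liver at 53.8 CPM and the lowest lard liver at 50.2 CPM. In CPM, all fish livers lay above all soy livers for Hfe and Scara5, and above all lard livers for Tfr2. CPM does not include the TMM scaling of the fit. With that scaling, Hfe in fish against soy livers had a log2 difference of -0.07 on unique reads (edgeR adjusted p = 0.715), so its separation in CPM is not a higher fitted level. All lard livers lay above all soy livers for Scara5. The comparisons between fats share groups with each other.

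**Figure D3:**
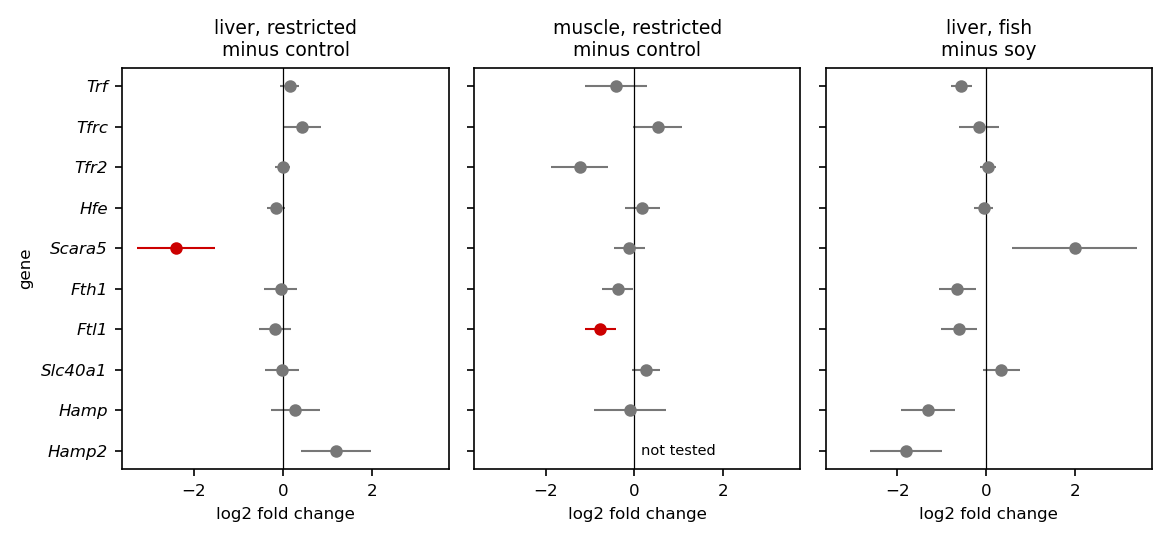
Log2 fold changes of the 10 genes with 95% intervals for restricted against control livers, restricted against control muscles, and fish against soy livers, on 1 scale. Red points passed an adjusted p of 0.05, which are Scara5 in liver at -2.41 and Ftl1 in muscle at -0.77, and Hamp2 in muscle was not tested.

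In muscle, the light ferritin chain was lower under restriction by edgeR, and the other iron genes did not pass in that test. Of the 9 members tested, 1 was called and it was lower, where 3.49% of 13104 genes were called. DESeq2 called 2, Ftl1 and Tfr2, and limma-voom called 0. Hamp2 was too low to test. The median log2 difference of the 9 was -0.12, against -0.02 over all genes.

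Ftl1 was at 340, 175, 351 and 205 CPM in control muscles and at 136, 274 and 158 CPM in soy muscles. Fish muscles had 154, 137 and 153 CPM, and lard muscles had 153, 151, 140 and 132 CPM. All fish and lard muscles lay below all controls, while soy muscle 1073 lay among the controls. The log2 difference was -0.77 ± 0.17 (adjusted p = 0.0422), and on unique reads -0.69 (adjusted p = 0.041). The highest controls were muscles 1071 and 1120, which carried the neutrophil and erythroid markers. Without 1071 the difference was -0.59 (adjusted p = 0.146), without 1120 it was -0.66 (adjusted p = 0.135), and without both it was -0.27 (adjusted p = 0.558). Of the 14 removals of 1 library, 4 kept the call, those of control muscles 1095 and 1121, fish muscle 1067 and soy muscle 1073. The other 10 lost it, at adjusted p values up to 0.146, and limma-voom gave -0.72 (adjusted p = 0.0558). The sum of 8 Kupffer cell and macrophage markers was also lower in all fish and lard muscles than in controls. Among controls, muscle 1071 had a sum like those of muscles 1095 and 1121. The sum was 54.0, 54.2, 92.9 and 55.6 CPM in control muscles, 31.8 to 34.8 CPM in fish and 16.0 to 44.1 CPM in lard muscles. In soy muscles it was 79.0 CPM in mouse 1073 against 31.8 and 33.4 CPM. The part of these cells in the Ftl1 level was not tested beyond the removals of libraries.

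**Figure D4:**
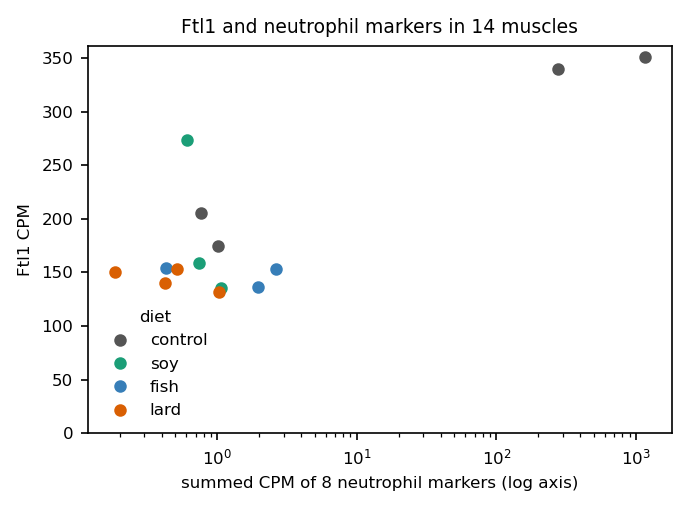
Ftl1 CPM in 14 muscles against the summed CPM of 8 neutrophil markers on a log axis, each point 1 library coloured by diet. Control muscles 1071 and 1120 stand apart at 276 and 1169 CPM of markers and 340 and 351 CPM of Ftl1, and soy muscle 1073 reaches 274 CPM of Ftl1 with 0.61 CPM of neutrophil markers and 79.0 CPM of macrophage markers, which are not plotted.

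Fth1 was at 2082, 991, 1558 and 1018 CPM in control muscles and at 983 to 1208 CPM in restricted muscles. The high values belong to the same 2 control muscles, and the log2 difference of -0.38 ± 0.17 (adjusted p = 0.186) became 0.12 without them (adjusted p = 0.715). Over the 14 muscles Fth1 and Ftl1 had r = 0.735 (permutation p = 0.00915, adjusted 0.00915) but rho = 0.073 (permutation p = 0.807, adjusted 0.807). Without muscles 1071 and 1120 r was -0.444, so the relation rested on those libraries.

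Tfr2, a scarce message in muscle, was at 2.73, 1.01, 1.91 and 1.59 CPM in controls, 0.75, 0.67 and 0.67 CPM in soy, 1.35, 0.61 and 0.32 CPM in fish and 0.89, 0.80, 1.08 and 0.55 CPM in lard muscles. Most restricted muscles lay below the lowest control, with 4 to 42 reads in a library. Hepatocyte markers were also read in every muscle, with Alb at a median of 222 CPM there against 98660 CPM in liver. The part of liver RNA in the muscle levels of Tfr2, Hamp and Hamp2 was not tested. The log2 difference of -1.24 ± 0.33 narrowly missed the threshold (adjusted p = 0.0541), passed with DESeq2 (adjusted p = 0.0182) and without control muscle 1095 (adjusted p = 0.0247), control muscle 1121 (adjusted p = 0.0374) or fish muscle 1067 (adjusted p = 0.0397), and was -0.75 without muscles 1071 and 1120 (adjusted p = 0.567).

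Tfrc was at 50.7, 116, 61.7 and 131 CPM in control muscles and at 133, 136, 144 and 258 CPM in lard muscles, all 4 above every control. The difference was 0.95 ± 0.33 in lard (adjusted p = 0.205) and 0.52 ± 0.28 over the restricted diets (adjusted p = 0.251). The lowest controls were again muscles 1071 and 1120, and without them the restricted difference was 0.06 (adjusted p = 0.966). Scara5 was at 21.7, 22.1, 25.5 and 32.3 CPM in control muscles and 13.3 to 45.4 CPM in restricted ones, a difference of -0.12 ± 0.17 (adjusted p = 0.699). Trf, Slc40a1, Hfe and Hamp had restricted differences of -0.42 to 0.26 with adjusted p values of 0.311 to 0.896.

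**Figure D5:**
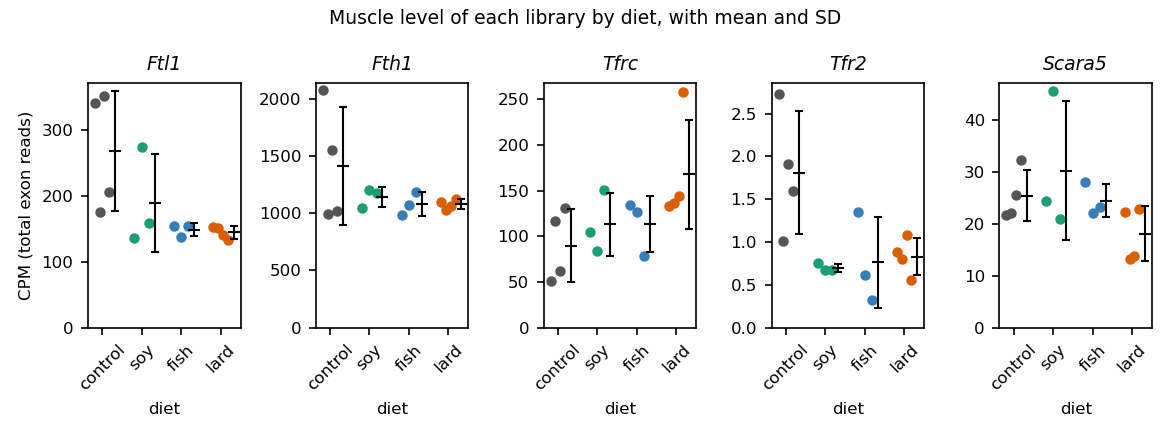
CPM of total exon reads of Ftl1, Fth1, Tfrc, Tfr2 and Scara5 in each muscle by diet, each point 1 library, with the mean and SD beside the points. For Ftl1 and Fth1 the 2 highest points are control muscles, at 340 and 351 CPM and at 2082 and 1558 CPM.

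Single diets gave 0 called members of 9 in muscle by edgeR. For soy, fish and lard against control, 0%, 0.00763% and 0% of genes were called, 2, 3 and 3 members had an unadjusted p under 0.05, DESeq2 called 0, 1 and 1, and limma-voom called 0 in each. The DESeq2 calls were Ftl1 in fish and in lard, at -0.89 and -0.83. Between the fats, fish against soy, lard against soy and fish against lard each called 0% of genes and 0 members. There 0, 1 and 1 members had an unadjusted p under 0.05, and DESeq2 and limma-voom called 0.

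The effect of restriction was tested for a difference between liver and muscle. By edgeR, 1 of 10 members was called, Scara5, at -2.29 ± 0.46 (adjusted p = 0.0285), with 0.657% of all genes called. Its liver value was -2.41 and its muscle value -0.12. With the animal as a block, since 13 mice gave both tissues, it was -2.06 and did not pass (adjusted p = 0.118). It did not pass without control liver 1120 (-2.22, adjusted p = 0.121), control liver 1121 (-1.77, adjusted p = 0.149), control muscle 1120 (-2.25, adjusted p = 0.0637) or all 4 libraries that stand apart (-2.09, adjusted p = 0.207). Tfr2 had a difference of 1.22 ± 0.30 (adjusted p = 0.0566), which was 0.91 with the animal as a block (adjusted p = 0.341) and 0.74 without the libraries that stand apart (adjusted p = 0.490). It passed with DESeq2 (adjusted p = 2.49e-05) and without control muscle 1095, control muscle 1121, fish muscle 1067 or soy liver 1141 (adjusted p = 0.0147 to 0.045). For Ftl1 the difference was 0.59 ± 0.29 (adjusted p = 0.276).

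The likeness of other genes to each member is given as Pearson's r of log2 CPM over the 15 livers or 14 muscles of all diets. In liver, Hamp was most like Spcs2 (0.912), Gckr (0.886) and Derl2 (0.878), and Hamp2 most like Pdhb (0.926), Gm49342 (0.921) and Arg1 (0.889). Tfrc was most like Lipg (0.894), Tfr2 most like Pik3cd (0.878), Trf most like Rpn2 (0.918) and Slc40a1 most like Gm14698 (0.910). Fth1 was most like Emc10 (0.967), Ftl1 most like Akr7a5 (0.939), Hfe most like Rmdn3 (0.890) and Scara5 most like Phkb (0.870). In muscle, Fth1 was most like Ddrgk1 (0.986), Ftl1 most like Rarres2 (0.951), Tfrc most like Efcab2 (0.942) and Scara5 most like Cadm3 (0.926). Hamp was nearest to Zbtb38 (0.824), Tfr2 to Ppp2cb (0.936), Slc40a1 to Parp8 (0.939) and Hfe to Pycr1 (0.924). These libraries share the diet groups and the libraries that stand apart.

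The wider pathway was read from 9 lists of 81 genes, chosen with earlier results of these data known. In liver, 76 were tested and 1 rose under restriction, a share like the 1.08% of all genes called. This was Steap2, a metalloreductase, at 8.10 to 16.6 CPM in controls, 18.3 to 26.7 CPM in fish, 14.0 to 22.8 CPM in lard and 12.7 to 23.2 CPM in soy livers, a log2 difference of 0.91 ± 0.21 (adjusted p = 0.0493). None of the 13 tested genes that carry the BMP and hemojuvelin signal to hepcidin was called by edgeR (1 had an unadjusted p under 0.05). The smallest p among them was that of Tmprss6, a protease that limits the signal, at 424 to 483 CPM in controls and 337 to 409 CPM in restricted livers, a difference of -0.24 ± 0.07 (adjusted p = 0.183). Id2 of the BMP-SMAD targets had -0.67 ± 0.23 (adjusted p = 0.234). By unadjusted p, 15 of the 76 list genes were under 0.05, as 1502 of 12788 genes were. They included 3 of 7 BMP-SMAD targets, 4 of 10 interleukin-6 response genes and 4 of 6 iron import genes. The median log2 difference of the BMP-SMAD targets was -0.34, with 1 of 7 positive. In fish against soy livers it was -0.66, with 5 of 7 under 0.05 by unadjusted p, as 2959 of 12788 genes were, and 0 called. Saa2, an acute phase gene of the interleukin-6 response, had -1.70 ± 0.42 (adjusted p = 0.0717). Alas2, the erythroid enzyme that opens heme synthesis, had -1.25 ± 0.32 (adjusted p = 0.0845).

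The remaining liver lists gave small differences. Fbxl5, of iron sensing, differed by 0.14 ± 0.09 (adjusted p = 0.599), Cp, the ferroxidase ceruloplasmin, by -0.13 ± 0.11 (adjusted p = 0.708), and Blvra, which reduces biliverdin after heme breakdown, by 0.45 ± 0.20 (adjusted p = 0.410). Fdxr, which feeds electrons to iron-sulfur assembly, differed by 0.27 ± 0.19 (adjusted p = 0.642). Without soy livers 1073 and 1159, 6 of 74 genes were called, where 326 of all genes were, against 138 with those livers. The 6 were Steap2, higher at 0.98 (adjusted p = 0.0194), and Tmprss6, Alas2, Uros, Saa1 and Saa2 lower. Tmprss6 was then at -0.25 (adjusted p = 0.0484). This removal was chosen for the lists after the data were seen.

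In muscle, 4 of 75 tested list genes fell and 0 rose under restriction, a share near the 3.49% of all genes called. They were Lcn2, a siderophore-binding protein made by neutrophils, at -4.61 ± 0.78 (adjusted p = 0.0276), the hemoglobin scavenger Hp at -2.28 ± 0.50 (adjusted p = 0.0403), Alas2 at -2.54 ± 0.64 (adjusted p = 0.0481) and the BMP target Smad6 at -0.77 ± 0.20 (adjusted p = 0.0496). Lcn2 ranged from 0.872 to 59.6 CPM in control muscles and Alas2 from 1.11 to 67.4 CPM. Without control muscles 1071 and 1120, 0 of 73 list genes were called, and 2 of all genes were. Lcn2 and Alas2 were then at -0.23 and 0.16, while Hp was at -1.85 (adjusted p = 0.325) and Smad6 at -0.53 (adjusted p = 0.513). Below the threshold, Slc39a14, an importer of iron that is not bound to transferrin, had 0.36 ± 0.19 (adjusted p = 0.229), and Ireb2, an iron regulatory protein, had 0.40 ± 0.17 (adjusted p = 0.154). Acvr1, Heph and Glrx5 had -0.58, 0.22 and -0.53, with adjusted p values of 0.0607, 0.733 and 0.0526.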

How the data were processed

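Libraries of liver and hindlimb muscle RNA were made with an Illumina TruSeq kit, per the labels' protocols. The deposited tables give counts of total and unique exon reads per gene and RPKM computed by the authors, per the file headers. GRCm38 and FastQC are named per the submitters' processing notes. For the aligner, the annotation and strandedness, names or versions were not found in the labels used here, and the authors discarded a control liver and a fish muscle. Total exon reads were used. For Trf and Ftl1 most of them are not unique.

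In R 4.3.3, edgeR 4.0.16 kept genes by filterByExpr (minimum count 10), scaled by TMM and tested by quasi-likelihood with all 4 diets of a tissue in 1 fit, or all 8 groups for tissue comparisons. A gene was called at a Benjamini-Hochberg adjusted p under 0.05 over all genes tested. CPM is exon reads per 1000000 exon reads of the library. SE is the log2 difference over the square root of F. Levels between genes use RPKM. The depth of 11315231 to 27106865 reads limits Scara5 in liver and Hamp2 and Tfr2 in muscle. The method was tested on simulated data. Alternatives were unique reads, DESeq2 1.42.0, limma-voom (limma 3.58.1), other filters, blocks and removals of libraries. The p-values measure the spread between these mice.

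Tissue fits share 13 animals by the labels, and the animals' liver and muscle deviations correlated at -0.072 to 0.128. All 10 members are named, with each list gene called in a diet comparison or else that of smallest p under restriction, and the 3 most similar genes were found by correlation of log2 CPM. The members and lists were chosen with earlier results of these data known.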

Additional observations from a re-analysis of the deposited data

Results flagged for a closer look

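Within groups of 4 libraries, 4 of 50 tests found 1 library far from the other 3, where chance gives about 1 in 20. Hamp2 was at 50.2 CPM in the lard liver of mouse 1102, against 109 to 121 CPM in the other lard livers. Tfrc was at 257.5 CPM in the lard muscle of mouse 1130, against 133 to 144 CPM. In the fish liver of mouse 1124, Fth1 was at 1070 CPM against 842 to 860 CPM, and Hfe at 42.2 CPM against 37.5 to 37.9 CPM. That liver also held 906 CPM of Kupffer cell and macrophage markers, against 385 to 493 CPM in the other fish livers, and their part was not tested.

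The restriction effect on Scara5 differed between liver and muscle by -2.29 on the log2 scale in the fit of both tissues (adjusted p = 0.0285). It did not pass with the animal as a block (-2.06, adjusted p = 0.118), with limma-voom (-1.97, adjusted p = 0.119) or without the libraries that stand apart (-2.09, adjusted p = 0.207).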

How the results depend on the processing

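Of the counts of called members, those for liver against muscle stayed within 1.5 times under all alternatives. For restricted livers (1 member) DESeq2 gave 2, and a mean of at least 5 CPM and the library number as a block gave 0. For soy against control livers (1) DESeq2 gave 3, and a mean of at least 5 CPM, removal of the libraries that stand apart, the block and a fit of the compared diets alone each gave 0. DESeq2 gave 1 for lard against control (also 1 with the compared diets alone), 5 for fish against soy, 1 for lard against soy and 1 for fish against lard livers. In restricted muscles (1) DESeq2 gave 2, and limma-voom, removal of the libraries that stand apart and the block gave 0. DESeq2 gave 1 for fish and 1 for lard against control muscles. For the restriction effect between tissues (1) DESeq2 gave 2, and limma-voom, removal of the libraries that stand apart and the animal as a replicate block gave 0. Leaving out 1 library at a time gave 0 to 1 for restricted livers, 0 to 4 for soy against control, 0 to 5 for fish against soy, 0 to 1 for lard against soy, 0 to 2 for restricted muscles, 0 to 2 for the effect between tissues and 9 to 10 for liver against muscle. Restricted muscles kept a count of 1 in 1 of 14 removals. Among pairs with the same library number, 3 of 21 in liver and 3 of 19 in muscle correlated over 0.1. Pairs of different numbers are not given beside them, so this does not settle whether the number pairs samples. With the library number as a block, all genes called fell from 138 to 100 in restricted livers and from 457 to 27 in restricted muscles. Scara5 in restricted livers then had -2.42 (adjusted p = 0.0747) and Ftl1 in restricted muscles -0.77 (adjusted p = 0.0664). Of 3816 gene values under alternatives, 3748 kept their side of the threshold, 27 lost the call, 41 gained it and 0 called values turned sign. Most of these values belong to differences that were not called, so the total does not measure how firm the calls were. All 27 losses fell on the diet calls: Scara5 in restricted and soy livers, Scara5 in the effect between tissues, and Ftl1 in restricted muscles. Settings in which Scara5 was not tested are not counted as losses. The cause of these changes was not tested. Low counts limit Scara5 in liver.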
